A study of Mus musculus with 6 samples.

Results

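Among the 54525 genes counted in C2C12 cells, 58 were present in proliferating myoblasts and almost without reads in myotubes. They were chosen on the measured values themselves: at least 30 raw counts in each of the 3 myoblast libraries and at most 3 in each of the 3 myotube libraries, leaving out spike-in sequences and symbols that begin with Hist, Col, Kcn, Hox or mt-. The set held 29 protein-coding genes, 16 long noncoding RNAs, 6 loci of the GENCODE class TEC (transcribed loci not yet tested by experiment), 5 pseudogenes and 2 small RNAs. Among the coding genes were the transcription factor *Npas4*, the placental hormone genes *Prl2c2* and *Prl2c3*, the interleukin 7 receptor chain *Il7r*, the tight junction genes *Cldn4* and *Cldn13*, and the bitter taste receptor genes *Tas2r135* and *Tas2r143*. Since the choice used the contrast of myotubes with myoblasts, the counts of these genes are a description and no test of that contrast is given for them.

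C2C12 is an established line of mouse myoblasts, here wild type and without any treatment. RNA-seq was performed on 3 cultures kept in growth medium with fetal bovine serum (D0) and on 3 cultures after 5 days in differentiation medium with horse serum (D5). All 6 libraries come from this 1 line, and their labels give the same cell type, myoblast, at both times. For each gene the authors deposited the number of reads counted on it, without normalization.

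Proliferating myoblasts divide under the mitogens of serum. When serum is withdrawn they leave the cell cycle, switch on the myogenic factor *Myog* and fuse into multinucleated myotubes that build the contractile apparatus. In this transition genes of the cell cycle and of the growth response go down as muscle genes come up. Immediate early genes, to which *Npas4* belongs, are transcribed within minutes of a stimulus and need no new protein synthesis for it.

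The D0 libraries held from 36555048 to 40895840 counts on genes and the D5 libraries from 25449759 to 25811300, so a gene of the same share gave more counts at D0. The ERCC spike-ins, synthetic RNAs added in known amounts, took 0.726% to 0.859% of the counts at D0 and 0.720% to 2.09% at D5. In edgeR's quasi-likelihood test of 16290 genes, 40.8% were lower and 42.2% were higher at D5 at an adjusted p under 0.05. These shares are the background for every count below from this fit, but not for counts with the ERCC totals. Scaled to the ERCC totals, the median log2 fold change of all genes moved from 0.0022 to −0.58, and the calls became 3747 lower and 1813 higher in place of 6641 and 6869. The markers matched D0 and D5. *Myog* had 112, 124 and 94 counts at D0 and 12920, 12775 and 12737 at D5, the 6 myotube markers tested all rose, and the myoblast and cycling markers all fell (5 of 5), among them *Myf5* (log2 fold change −2.32, SE 0.042, adjusted p = 3.45e-29) and *Mki67* (−5.11, SE 0.047, adjusted p = 1.40e-36). *Myod1*, the determination factor of the lineage, fell least of these, by 0.71 on the log2 scale. The p-values measure the spread between these cultures of 1 line.

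The 58 genes were 0.448% of the 12953 genes with at least 30 counts in each D0 library and no excluded prefix. The opposite pattern, at most 3 counts at D0 and at least 30 at D5, was shown by 213 genes although the D5 libraries were shallower. Summed over the 58 genes, the D0 libraries held 3955, 4395 and 4617 counts and the D5 libraries 69, 60 and 56. In CPM (counts per 1000000) the sum was 105, 104 and 115 CPM at D0 and 2.74, 2.43 and 2.25 CPM at D5. Only 6 of the genes had no count in any D5 library. A further 27 had 1 to 3 counts summed over the D5 libraries and 25 had 4 or more, up to a sum of 8. "Silent" therefore stands for at most 3 reads in a library and not for the absence of transcript. In bulk RNA, fewer cells that express a gene and less of its RNA per cell cannot be told apart.

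**Figure D1:**
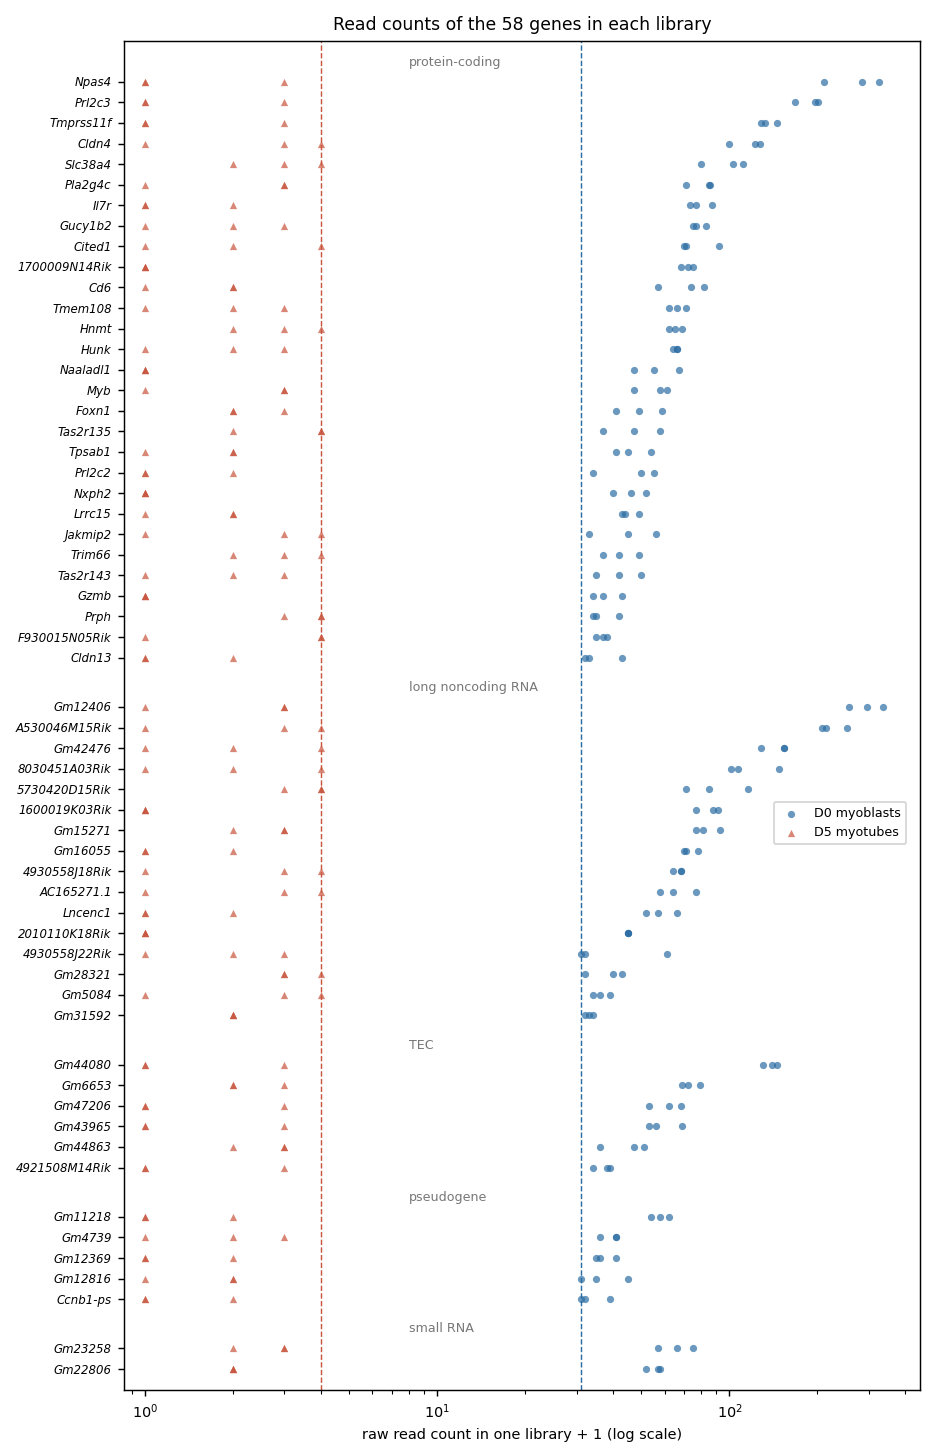
Raw counts of the 58 genes in each library (log-scaled axis of counts plus 1), ordered by level within their class, with each of the 3 D0 libraries a circle, each of the 3 D5 libraries a triangle and dashed lines at the limits. Every gene lies at 30 counts or more at D0 and at 3 or fewer at D5, as the choice requires, and *Gm12406* with up to 335 counts and *Npas4* with up to 323 reach highest.

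The transcription regulators were 5 genes. *Npas4* encodes a basic helix-loop-helix PAS factor known for its induction by activity in neurons, and lies on chr19:4984355-4990316 (minus strand, GRCm38, as are all positions given here). Counts of 210, 283 and 323 at D0 stood against 0, 0 and 2 at D5. The level at D0 was 5.68 ± 1.10 TPM (transcripts per 1000000, mean ± SD, n = 3), and the ratio of D0 to D5 in CPM was 254, with a counting interval of 70.2 to 2103. This is the highest ratio among the genes with a D5 count. It rests on 2 reads in 1 D5 library, and its interval overlaps those of other genes, such as *Il7r* (25.9 to 5784). *Cited1* (chrX:102247381-102252181, minus strand) encodes a coactivator that binds CBP and p300 and has no DNA-binding domain of its own. It had 70, 69 and 91 counts at D0 and 1, 3 and 0 at D5, a ratio of 35.8 (13.8 to 133). *Myb*, a factor of blood progenitors, had 57, 60 and 46 against 0, 2 and 2, *Foxn1*, a factor of thymus epithelium and hair follicles, had 58, 40 and 48 against 1, 2 and 1, and *Trim66* encodes a chromatin-associated corepressor. The last 3 were among the lowest of the set per length, from 0.355 TPM for *Trim66* to 1.32 TPM for *Foxn1*.

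The hormone, receptor and ligand genes were led by the proliferins. *Prl2c3* (chr13:12790816-12800079, minus strand) and *Prl2c2* (chr13:12996125-13005383, minus strand) encode secreted hormones of the prolactin family that are known from placenta and from growing fibroblasts. *Prl2c3* had 167, 200 and 195 counts at D0 and 2, 0 and 0 at D5, which gave 11.9 ± 0.694 TPM at D0 and a ratio of 175 (48.3 to 1449.5). *Prl2c2* had 49, 54 and 33 counts against 0, 0 and 1, at 3.6 ± 0.836 TPM and a ratio of 84.8 (15 to 3372). As the limits require, both were far above their D5 counts in every D0 library. How reads are divided between them is uncertain because their coding sequences were identical at 672 of 675 bases (99.6%). Of the exonic sequence of *Prl2c2*, 83.3% of the 50-base words also stood in another gene, and of *Prl2c3* 59.99%. The stretch of coding bases 200 to 319 of the GENCODE M21 transcripts, which crosses an exon junction in both genes, is printed to show how alike they are, with the bases that differ in capitals.
Prl2c2 (chr13:12997464-13002141, minus strand, exons joined): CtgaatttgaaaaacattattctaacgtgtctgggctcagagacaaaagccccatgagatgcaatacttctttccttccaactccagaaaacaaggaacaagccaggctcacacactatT
Prl2c3 (chr13:12792171-12796838, minus strand, exons joined): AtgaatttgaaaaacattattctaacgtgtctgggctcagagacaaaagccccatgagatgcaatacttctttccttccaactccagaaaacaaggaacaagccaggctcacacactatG
A read inside the lower-case run matches both genes. The other receptor and ligand genes were lower per length, at 1.45 TPM for *Il7r* and 1.52 TPM for *Nxph2*. *Il7r*, the receptor chain that binds interleukin 7 and is known from lymphocytes, had 72, 86 and 76 counts at D0 and 0, 0 and 1 at D5 (ratio 146, 25.9 to 5784). *Nxph2*, which encodes a neurexophilin, a secreted ligand of neurexins, had 45, 39 and 51 counts at D0 and none at D5. Against the limit that a count of 0 allows (3 counts per library), it was at least 9.39-fold lower at D5.

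Membrane proteins, junction proteins, transporters and sensory receptors were the largest coding group, with 8 genes. *Cldn4* (chr5:134945119-134946934, minus strand), a claudin of epithelial tight junctions, had 99, 126 and 121 counts at D0 and 3, 0 and 2 at D5, at 5.49 ± 0.472 TPM and a ratio of 43.1 (18.3 to 134). *Cldn13*, another claudin gene 29.6 kb away, had 32, 31 and 42 counts against 0, 1 and 0. The pair thus showed the same pattern at unequal levels, *Cldn13* at 2.85 TPM. *Slc38a4*, a transporter of neutral amino acids, had 79, 102 and 110 counts at D0 and 1, 3 and 2 at D5 (ratio 30.2, 13.7 to 83.0). The bitter taste receptor genes *Tas2r143* and *Tas2r135* lie 4.32 kb apart on chromosome 6. *Tas2r143* had 41, 49 and 34 counts against 0, 1 and 2 (4.05 TPM), and *Tas2r135* had 36, 46 and 57 against 3, 3 and 1 (3.67 TPM). Of this pair *Tas2r135* stood closer to the limit, with 3 counts in 2 of the D5 libraries. The other members of the group were *Cd6*, a glycoprotein of T cells, *Tmem108* and *Lrrc15*, at 0.570 to 0.759 TPM.

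Proteases, other enzymes and cytoskeletal genes made up the rest of the coding genes with a known role. *Tmprss11f*, a membrane-anchored serine protease, had 127, 131 and 144 counts at D0 and 2, 0 and 0 at D5 (ratio 125, 34.5 to 1038). *Gzmb*, the granzyme of cytotoxic lymphocytes, had 36, 42 and 33 counts at D0 and none at D5 (at least 7.68-fold lower), and *Naaladl1*, an aminopeptidase, had 54, 46 and 66 and none (at least 11.5-fold lower). *Tpsab1* encodes a tryptase of mast cells, and the 4 protease genes lay at 1.71 to 2.23 TPM at D0. *Pla2g4c*, a cytosolic phospholipase A2, had 70, 84 and 85 counts against 2, 2 and 0 (ratio 37.2, 14.4 to 138). *Gucy1b2*, a subunit of soluble guanylate cyclase, had 76, 82 and 74 against 0, 1 and 2 (ratio 48.2, 16.3 to 235). The histamine methyltransferase *Hnmt* and the kinase *Hunk* completed the enzymes. *Prph*, an intermediate filament of peripheral neurons, had 33, 41 and 34 counts at D0 and 3, 3 and 2 at D5. Its ratio of 8.41 (4.12 to 19.98) was the lowest among the genes with a D5 count. *Jakmip2*, which encodes a microtubule-binding protein, had the lowest level per length, 0.350 TPM. Of the uncharacterised coding genes, *1700009N14Rik* had 67, 71 and 74 counts at D0 and none at D5 (at least 14.7-fold lower).

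Several of these coding genes are known from other cell types, and the markers of those types were counted beside them. Of 29 blood cell markers, 16 had at most 3 counts in every library. Among these were *Ptprc*, *Cd3e* and *Tyrobp*, with at most 1, 2 and 0 counts in any library. Others were counted, myeloid markers among them. *Itgam*, not tested, had 0, 0 and 0 counts at D0 and 10, 13 and 5 at D5. Of the 6 tested, 3 fell, 2 rose and 1 was not called. The summed counts of the list, 9489 to 10562 at D0 and 331 to 358 at D5, were at D0 mostly *Siglecg*, a sialic acid receptor of B cells, with 8778, 9806 and 9059 counts at D0 and 15, 17 and 20 at D5. *Siglec15* (371, 372 and 421 against 61, 55 and 44) and *Cd68* (124, 130 and 123 against 57, 63 and 46) fell as well, the call of *Cd68* being lost with the ERCC totals. *Cd14* was not called (175, 208 and 200 against 106, 119 and 134), and *Cd33* rose (3, 7 and 10 against 55, 46 and 41). Of the epithelial markers, *Epcam*, *Krt5*, *Krt8* and *Krt18* had at most 3 counts in any library. The epithelial list, without *Cldn4*, summed to 80 to 107 counts at D0 and 105 to 112 at D5. Of the 3 tested, 2 rose and 1 fell. *Cdh1* rose (log2 fold change 6.56), *Krt19* rose slightly, a call lost with the ERCC totals, and *Krt14* fell by 1.51. Of the neuronal and endocrine markers 8 of 10 tested fell and 2 rose, with sums of 13686 to 15571 at D0 and 1435 to 1538 at D5. The neurofilament genes *Nefl* and *Nefm* fell (log2 fold change −6.08 and −3.10), beside the filament gene *Prph*. The part of other cell types in these levels was not tested beyond these markers.

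Long noncoding RNAs held the highest counts. *Gm12406* (chr4:41639378-41641416, plus strand) had 256, 294 and 335 counts at D0 and 2, 0 and 2 at D5, which gave 36.7 ± 4.55 TPM and a ratio of 138 (53.7 to 507). *A530046M15Rik* (chr13:15807243-15827537, plus strand) had 207, 213 and 252 counts against 2, 0 and 3, a ratio of 83.8 (35.7 to 259). *Gm42476* had 127, 153 and 153 against 3, 0 and 1, at 22.5 ± 1.63 TPM. These noncoding transcripts were ahead of every coding gene of the set per length. *1600019K03Rik* had 90, 87 and 76 counts at D0 and none at D5, at 15.3 ± 1.65 TPM and at least 17.6-fold lower at D5, the highest such bound of the 6 genes without a D5 count. *Gm16055* had 69, 70 and 77 counts against 1, 0 and 0 (9.98 ± 0.742 TPM). *5730420D15Rik* had 70, 84 and 115 against 3, 2 and 3, so its D0 libraries spread widely (6.57 ± 1.66 TPM) and it held the highest D5 sum of the noncoding genes. *AC165271.1* had 57, 63 and 76 against 2, 0 and 3. The other 9 long noncoding RNAs (*8030451A03Rik*, *Gm15271*, *4930558J18Rik*, *Lncenc1*, *2010110K18Rik*, *4930558J22Rik*, *Gm28321*, *Gm5084* and *Gm31592*) lay between 0.800 and 3.41 TPM, and one of them, *2010110K18Rik*, had 44 counts in each D0 library and none at D5.

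The small RNAs were *Gm23258*, annotated as a small nuclear RNA, and *Gm22806*, annotated as a small nucleolar RNA. *Gm23258* had 56, 65 and 74 counts at D0 and 2, 2 and 1 at D5, at 53.1 ± 6.77 TPM, and *Gm22806* had 51, 56 and 57 against 1, 1 and 1, at 34.8 ± 1.44 TPM. Both lie inside a gene that was itself expressed without sharing its exons, *Gm23258* in *Fhl1* and *Gm22806* in *Cks2*, and both genes fell (log2 fold change −2.34 and −3.40). Their GENCODE M21 sequences, 106 and 136 bases long, are printed because their length sets their TPM.
Gm23258 (chrX:56750010-56750115, plus strand): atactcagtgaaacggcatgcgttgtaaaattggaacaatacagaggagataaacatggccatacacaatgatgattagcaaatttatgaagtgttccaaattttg
Gm22806 (chr13:51648199-51648334, plus strand): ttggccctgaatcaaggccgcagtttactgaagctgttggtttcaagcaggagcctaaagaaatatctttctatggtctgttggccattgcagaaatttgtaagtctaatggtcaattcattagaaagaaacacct
Their high TPM values rest on these short lengths, and 50.6% of the 50-base words of *Gm22806* also stood in another gene, most of them (49.4%) in *Gm22353*, whereas no word of *Gm23258* did.

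The 6 TEC loci have a single exon each and no known product. *Gm44080* had 129, 144 and 139 counts at D0 and 0, 0 and 2 at D5, and its D0 libraries were the most alike of the set (CV 0.398%). *Gm6653* had 71, 68 and 78 against 2, 1 and 1, and *Gm43965* had 55, 68 and 52 against 0, 2 and 0. The other 3 TEC loci were *Gm44863*, *Gm47206* and *4921508M14Rik*.

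The 5 pseudogenes were *Gm11218*, *Gm12369*, *Gm12816*, *Gm4739* and *Ccnb1-ps*. *Gm11218* had 53, 61 and 57 counts against 0, 1 and 0. *Gm4739* had 35, 40 and 40 against 1, 2 and 0, and *Ccnb1-ps* had 31, 38 and 30 against 0, 1 and 0. The latter pair are near copies of genes of dividing cells. *Gm4739* was identical to the transcript of *Hmgb2*, a chromatin protein, at 631 of 633 bases (99.7%), and *Ccnb1-ps* to that of cyclin B1, *Ccnb1*, at 1277 of 1287 bases (99.2%). A stretch of each, from the GENCODE M21 transcripts, is printed with the gene it resembles, with the bases that differ in capitals.
Ccnb1-ps (chr7:42106712-42106831, minus strand): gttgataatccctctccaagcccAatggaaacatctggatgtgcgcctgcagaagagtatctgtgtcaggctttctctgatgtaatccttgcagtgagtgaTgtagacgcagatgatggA
Ccnb1 (chr13:100783528-100783647, minus strand): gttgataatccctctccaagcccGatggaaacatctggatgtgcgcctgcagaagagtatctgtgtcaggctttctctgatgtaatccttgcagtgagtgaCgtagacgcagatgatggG
Gm4739 (chr10:26108275-26108394, plus strand): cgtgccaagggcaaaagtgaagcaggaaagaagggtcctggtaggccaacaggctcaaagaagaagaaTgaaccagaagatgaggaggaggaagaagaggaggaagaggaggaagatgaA
Hmgb2 (chr8:57513981-57514100, plus strand): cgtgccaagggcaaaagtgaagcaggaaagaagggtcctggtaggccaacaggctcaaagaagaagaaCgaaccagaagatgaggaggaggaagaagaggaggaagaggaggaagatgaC
The genes themselves had far higher counts than their copies. *Ccnb1* had 5039, 5739 and 5443 counts at D0 and 85, 120 and 105 at D5, a log2 fold change of −5.03 (SE 0.063, adjusted p = 2.81e-33). *Hmgb2* had 5306, 5849 and 5431 counts against 206, 241 and 207, a log2 fold change of −3.98. Reads of these genes assigned to the copies cannot be told apart from transcripts of the copies in a count table.

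Sequence shared with another gene touched 11 of the 58 genes at over 10% of their 50-base words or exonic length. Beside the proliferins, *Gm22806* and the pseudogenes *Gm4739*, *Gm12816* and *Ccnb1-ps*, they were *AC165271.1*, *Tmem108*, *Gm43965*, *4930558J22Rik* and *F930015N05Rik*. The last shares 86.1% of its words with *Hs3st3a1*, on whose opposite strand it lies and which fell by 2.74 on the log2 scale. The other 47 genes had no such overlap. Some of them, however, overlap the body of another gene on the same strand without sharing its exons. Examples are *Gm44080* in *Creb5*, *4921508M14Rik* in *Hdac9*, *Gm6653* in *Parpbp* and *Gm44863* in *Usp29*. Reads from introns of these genes cannot be told apart from reads of the loci in a count table.

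In level, the set lay below most expressed genes. The median gene had a mean of 57.8 counts at D0, from 32 for *Gm31592* to 295 for *Gm12406*, and 2.62 TPM against a median of 13.4 TPM for all genes tested. Of the 58 genes, 53 were under that median, 9 were under 1 TPM, and 1 (*Gm23258*) was among the top 25% of the genes tested. Beside 3448 other genes whose mean D0 count fell in the same range, the set held a larger share of long noncoding RNAs (27.6% against 16.7%), a smaller share of TEC loci (10.3% against 17.3%) and 50% coding genes against 54.8%. The exonic length was shorter, with a median of 1792.5 bases against 2704.5, and single-exon genes were no more frequent (31% against 34.7%). For single genes the D0 libraries differed by about as much as counting error. The median CV was 10.4%, beside a median counting error of 13.1%. A CV from 3 libraries falls below the true spread more often than above it. The lower value therefore does not show a spread under counting error. *4930558J22Rik* spread most, with 31, 30 and 60 counts (CV 41.5%), and D0 replicate 3 held the highest CPM for 31 of the 58 genes.

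The deeper D0 libraries were accounted for in 3 ways. First, the D0 counts were scaled to the mean D5 library of 25641267 counts. At that depth 33 of the 58 genes kept at least 30 counts in every D0 library and 25 did not, the lowest being *4930558J22Rik* with 18.8. Those 25 meet the limit of 30 through the depth of the D0 libraries. The lowest scaled D0 library was at least 6.90 times the highest D5 library for every gene with a D5 count. The limits of 30 and 3 counts, with a lowest scaling factor of 0.627, already force a gap near this size. It was thus largely fixed in advance. Second, each gene was set against 3 counts in every D5 library, the limit that a count of 0 allows. Measured in CPM, the median gene at D0 was 12 times that limit, from 6.66 for *Gm31592* to 61.2 for *Gm12406*, and 13.4 times without the 11 genes of shared sequence. The lowest of these multiples also follow from the limits. Last, the ratio of D0 to D5 in CPM was taken for the genes with any D5 count. Its median was 36.5, from 8.41 for *Prph* to 254 for *Npas4*. The 95% intervals given with these ratios are exact for the counts and cover counting error only. Since the same counts chose the genes, ratios and intervals lean towards large values. The intervals therefore do not hold their 95% coverage and are no test.

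**Figure D2:**
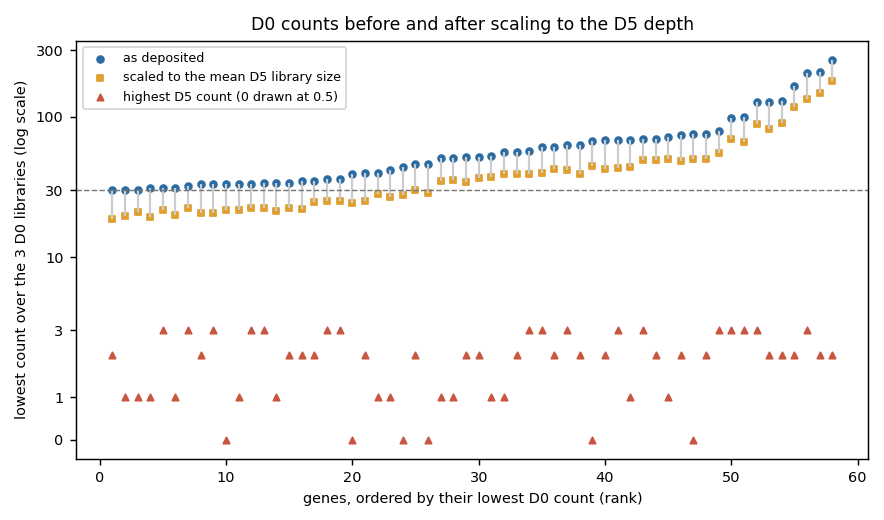
Lowest count over the D0 libraries (log-scaled axis) for the 58 genes ordered by it, as deposited (circles) and scaled to the mean D5 library size (squares), with the highest D5 count (triangles, 0 drawn at 0.5) and a dashed line at 30 counts. Squares of 25 genes lie under the line, the lowest at 18.8, and all squares stay above the triangles, as the limits of the choice require.

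Genes just inside and just outside the limits were much alike. Inside, the lowest D0 minimum belonged to *Ccnb1-ps*, *Gm12816* (30, 44 and 34 counts against 0, 1 and 1) and *4930558J22Rik*. Outside by their D5 counts of 4 or 5 were 27 genes, led by *Tspan18*, a tetraspanin, with 698, 812 and 789 counts at D0 and 1, 4 and 3 at D5. *Gm12405* (278, 274 and 324 against 5, 4 and 2), which lies beside *Gm12406*, and *A530058O07Rik* (212, 214 and 254 against 4, 0 and 3) followed. *A530058O07Rik* overlaps *A530046M15Rik* of the set on the same strand. Their counts were nearly equal (207, 213 and 252 against 2, 0 and 3 for *A530046M15Rik*), and whether they are separate transcripts was not tested. Outside by a lowest D0 count of 25 to 29 were 9 genes, with *Fam19a2* (29, 49 and 50 against 1, 1 and 2), *Itih3* (25, 36 and 52 against none) and *Trpm8* (29, 42 and 34 against none) at the highest mean. The D5 limit therefore left out a gene of higher D0 level than any of the 58. By their symbols alone, *Hist1h2ao*, *Hist1h2br*, *Hist3h2ba* and *Kcnmb1*, 4 genes in all, were left out.

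**Figure D3:**
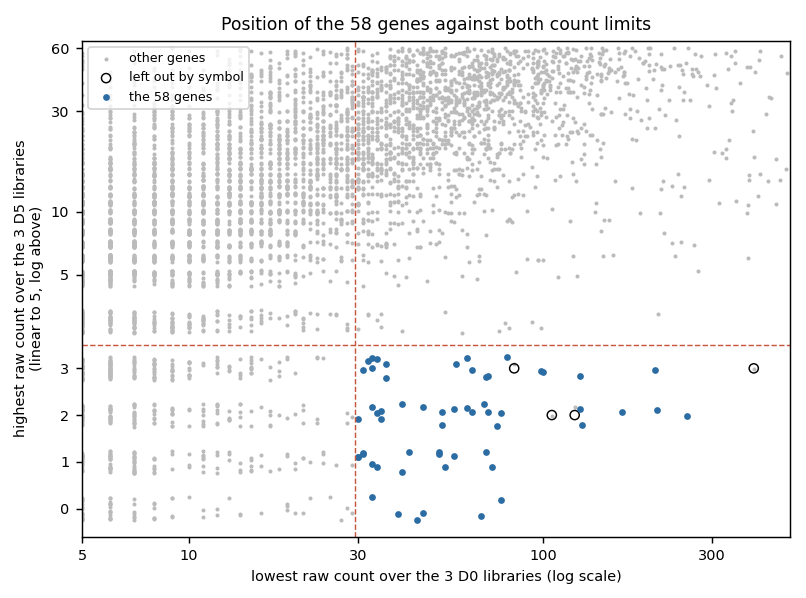
Lowest D0 count of each gene (x axis, log-scaled) against its highest D5 count (y axis, linear to 5 and log-scaled above, points jittered), for the 58 genes, the 4 left out by symbol (open circles) and all other genes in this range. Dashed lines mark the limits of 30 and 3 counts, with other genes on the far side of both. Over all D0 levels from 30 counts up, 27 genes without an excluded prefix had a highest D5 count of 4 or 5.

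The choice was repeated with 1 library held out at a time, and the count in that library was then read. Chosen on the other 5 libraries, 66, 59 and 58 genes met the limits when D0 replicate 1, 2 or 3 was held out. In the held-out library 8, 1 and 0 of them were under 30 counts, the lowest at 22, 27 and 30. Held out in turn, D5 replicates 1, 2 and 3 gave 68, 67 and 73 genes, of which 10, 9 and 15 had more than 3 counts there. The highest of these was 13 counts, for *Necab3*, and the medians were 2, 1 and 1. Thus a library that took no part in the choice kept the pattern of high D0 and low D5 counts, but placed some genes beyond the limits.

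Beyond the genes themselves, their neighbours on the chromosome were examined, since these did not enter the choice. Genes that overlap a member of the set may still share reads with it. Within 50 kb lay 214 genes, of which 92 were tested. Of these 69 fell (75%, against 40.8% of all genes), 17 rose (18.5%, against 42.2%) and 6 were not called, with a median log2 fold change of −0.98. With the ERCC totals 53 fell and 4 rose, a setting in which 67.4% of the calls over all genes were lower. The medians were lowest close by. Of 14 tested genes that overlap a member of the set 13 fell (92.9%, median −3.67), of 23 others under 10 kb away 20 fell (87.0%, median −3.79, or 14 of 17 with a median of −2.70 without histone genes), and of 55 at 10 to 50 kb 36 fell and 16 rose (65.5% and 29.1%, median −0.48). Scaled to the ERCC totals, 22 of these 55 fell, with a median of −1.09 against −0.58 for all genes. The histone genes around *4930558J22Rik* were 9 of the neighbours and all fell, and without them and the overlapping genes 48 of 70 fell (68.6%) and 17 rose (24.3%). For 31 of the 40 genes with a tested neighbour, the neighbours' median was below 0, where the median over all genes tested was 0.0022. This count still includes the overlapping and histone genes, and no like share was taken over all genes. Genes of the set that lie close together, such as *Cldn4* and *Cldn13*, share neighbours and were counted separately.

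**Figure D4:**
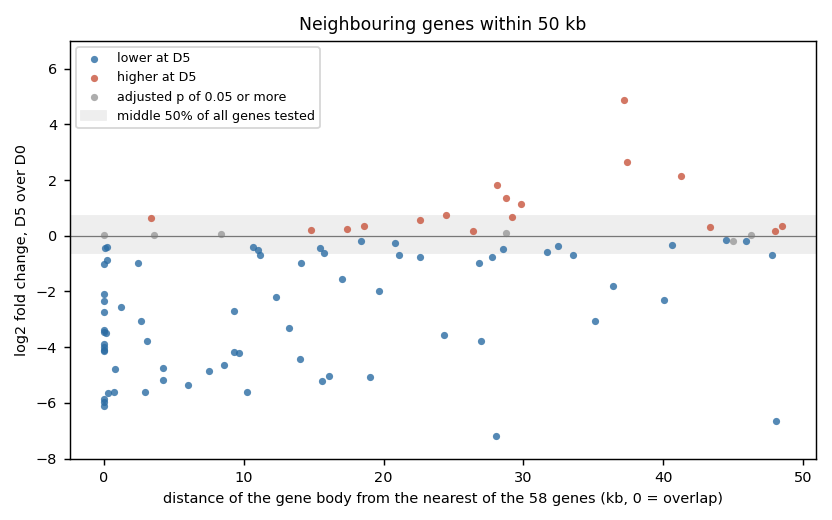
Log2 fold change (D5 against D0, edgeR) of the 92 tested neighbours against their distance in kb from the gene of the set, coloured by the call, with a grey band for the middle 50% of all genes tested. *Tas2r126* and *Spef2*, at 0 counts at D5, are drawn at fitted values that depend on edgeR's prior count. Overlapping and near genes lie mostly below 0, with medians of −3.67 for overlapping genes and −3.79 under 10 kb (−2.70 without histone genes), whereas at 10 to 50 kb the points spread to both sides (median −0.48).

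Several neighbours were among the genes that fell most. *Tnc*, the matrix protein tenascin C, overlaps *8030451A03Rik* on the opposite strand. It had 94643, 111156 and 107783 counts at D0 and 1041, 1032 and 1064 at D5, a log2 fold change of −5.96. *Creb5*, a transcription factor that holds *Gm44080*, fell by 6.11, and *Cdc25c*, the phosphatase that triggers mitosis and lies beside *2010110K18Rik*, had 834, 915 and 897 counts against 12, 10 and 11, a log2 fold change of −5.63 (SE 0.12, adjusted p = 4.56e-27). *Socs2*, an inhibitor of cytokine signalling next to *5730420D15Rik*, fell by 3.5 on the log2 scale, and *Pdgfc*, a platelet-derived growth factor next to *Gm42476*, fell by 3.07. The histone genes *Hist1h3b*, *Hist1h3c* and *Hist1h1a* fell (log2 fold change −5.60, −5.60 and −5.37). *Gm12405* and *A530058O07Rik*, just outside the limits above, fell as well (log2 fold change −5.60 and −5.86), but *A530058O07Rik* overlaps *A530046M15Rik* on the same strand. Not every neighbour followed. *Umad1*, on the opposite strand of *Gm16055*, was not called (log2 fold change 0.04, adjusted p = 0.66), a sign that turned to −0.53 with the ERCC totals, and the semaphorin gene *Sema4d* and the growth arrest gene *Gas1* rose by 4.89 and 1.83. Where exons of a gene and of its neighbour overlap on opposite strands, reads cannot be divided between them, since the strand setting of the counting is not stated. Nor can reads from introns of a gene be divided from those of a locus it overlaps on the same strand.

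Neighbours at the lowest counts included a further taste receptor gene. *Tas2r126*, 33.4 kb from *Tas2r143*, had 20, 19 and 28 counts at D0 and none at D5 (at least 4.65-fold lower, adjusted p = 4.2e-08). *Spef2*, a gene of sperm flagella near *Il7r*, had 15, 14 and 17 and none (at least 3.19-fold lower, adjusted p = 5.5e-07). Both were under the limit of 30 that defined the set.

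Relatives by symbol went both ways. Of 150 genes that share a symbol stem with a coding gene of the set, 101 had at most 3 counts in every library and 29 were tested. Of these 10 fell (34.5%, against 40.8% of all genes), 16 rose (55.2%, against 42.2%) and 3 were not called, and with the ERCC totals 10 rose. Other claudins were among both. *Cldn2* had 1, 1 and 2 counts at D0 and 113, 110 and 104 at D5, *Cldn5*, the claudin of endothelium, had none at D0 and 28, 25 and 26 at D5 (at least 14-fold higher), and *Cldn12* fell by 0.66, a call lost with the ERCC totals. *Jakmip1*, the relative of *Jakmip2*, had none at D0 and 35, 51 and 41 at D5 (at least 22.6-fold higher). *Npas2*, a clock factor, had 108, 129 and 110 counts against 12, 14 and 11 (log2 fold change −2.54), and *Cited2* had 17746, 18457 and 18793 against 3017, 2916 and 3283 (−1.90). Of the phospholipase genes tested, *Pla1a* fell by 1.08 and 3 were not called, whereas those that rose most were *Pla2g3* by 5.18, *Pla2g7* by 4.04, *Pla2g4f* by 3.95, *Pla2g16* by 2.64 and *Pla2g4a* by 1.08 on the log2 scale, the last call lost with the ERCC totals. Of the sweet and umami receptor genes, *Tas1r1* and *Tas1r2* rose by 6.75 and 3.51, and *Tas1r3* fell by 0.79 (23, 24 and 28 counts against 11, 6 and 10, adjusted p = 0.025), a call lost with DESeq2, without D0 replicate 3 (−0.72) and without D5 replicate 2 (−0.57).

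The pathways of the regulators, hormones and receptors were read from gene lists, without the genes of the set. Of 33 immediate early genes tested besides *Npas4*, 15 fell (45.5%) and 13 rose (39.4%), close to the shares of all genes. *Fosl1*, *Atf3*, *Dusp1* and *Myc* fell (log2 fold change −2.70, −2.05, −2.50 and −2.01), and *Srf*, the serum response factor, fell by 1.32. *Egr3* rose by 6.02, *Junb* by 1.93, *Fos* by 1.75 and *Egr1* by 1.5, the calls of *Fos* and *Egr1* being lost with the ERCC totals. The class thus held genes of both directions beside *Npas4*. Of 20 chemokines and interleukins tested, 1 fell and 17 rose. *Il7*, the ligand of *Il7r*, had 1, 4 and 2 counts at D0 and 61, 60 and 67 at D5, so the ligand was low where the receptor was counted. In the prolactin family list, which also held *Gh* and the receptors *Prlr* and *Ghr*, 15 of 18 other genes had at most 3 counts in every library. *Prl2c5*, at low counts and not tested, had 6, 8 and 10 at D0 and 3, 2 and 5 at D5, so it did not share the loss of *Prl2c2* and *Prl2c3*. *Ghr*, the growth hormone receptor, had 121, 149 and 154 counts at D0 and 4867, 4597 and 4902 at D5 (log2 fold change 5.76). The proliferation list fell as a whole, 30 of 30 with a median of −4.77.

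Growth factor genes fell for 12 and rose for 14 of 26 tested. ERK feedback genes fell for 4 and rose for 8 of 14, EGF family genes for 3 and 5 of 9, and interleukin 6 family genes for 2 and 8 of 11. The oncofetal RNA-binding and chromatin proteins fell for 4 of 4 tested, *Hmga2* only slightly (log2 fold change −0.20). Of those not tested, *Lin28a* (0, 0 and 0 counts at D0, 11, 11 and 8 at D5) and *Igf2bp1* (5, 13 and 5 against 12, 8 and 18) had more counts at D5. *Lin28b* (7, 4 and 5 against 1, 1 and 1) had fewer. Fibroblast markers rose for 8 and fell for 1 of 9. The summed CPM of the fibroblast list was nevertheless lower at D5, with 1971, 2000 and 1877 at D0 and 971, 938 and 943 at D5. Endothelial markers fell for 3 and rose for 2 of 5, and the 1 adipocyte marker tested fell.

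RefSeq promoters of GRCm38.p6, 250 bases before to 50 after a start, were read for 32 of the 58 genes. No window was read for the other 26. Motifs were searched on both strands in these windows and in those of 26993 other genes, and a match is a description of letters, not of a bound site. TGANTCA, a loose form of the motif of AP-1, the Fos and Jun dimer, stood in 9 of the 32 genes (28.1%) and in 8.95% of the others. It allows any base in the middle, where the AP-1 motif proper has C or G. The 9 were *Cldn4*, *Prl2c3*, *Tmprss11f*, *Gzmb*, *Lrrc15*, *A530046M15Rik*, *8030451A03Rik*, *1600019K03Rik* and *Gm6653*. In *Prl2c3* the match was TGAATCA, which is not the AP-1 motif proper. The CArG box, the motif of the serum response factor, stood in 4 (12.5%, against 1.79%): *Cited1*, *1700009N14Rik*, *A530046M15Rik* and *Gm28321*. Other motifs stood at shares closer to those of the other genes. These were the E-box CANNTG (78.1% against 74.98%), the GC box GGGCGG (43.8% against 38.2%), TATAAA (12.5% against 15.7%), the TEAD motif GGAATG (15.6% against 16.6%), the TCF motif TTTGAA (15.6% against 20.2%), and TGACGTCA, the cyclic AMP response element (3.13% against 2.03%). Since these genes are few and were chosen after results of these data were known, no test was made of the shares.

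**Figure D5:**
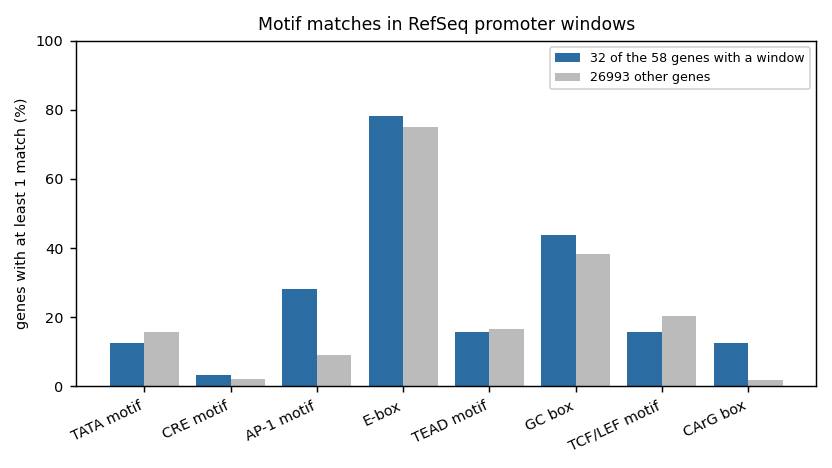
Share in percent of genes whose RefSeq promoter window holds each motif, for the 32 genes of the set with a window and for 26993 other genes. TGANTCA, the loose form labelled AP-1 motif (28.1% against 8.95%), and the CArG box (12.5% against 1.79%) stand furthest apart, and the E-box, found in 78.1% and 74.98%, is frequent in both.

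The 250 bases before the start of 5 genes are printed to show where these letters lie, with matches to TGANTCA, the CArG box, GGGCGG and TATAAA on either strand in capitals. They are the coding genes *Npas4*, *Prl2c3*, *Cldn4* and *Cited1*, whose counts are given above, and *A530046M15Rik*, which holds both of the motifs that stood furthest apart.
Npas4 (chr19:4989972-4990221, minus strand): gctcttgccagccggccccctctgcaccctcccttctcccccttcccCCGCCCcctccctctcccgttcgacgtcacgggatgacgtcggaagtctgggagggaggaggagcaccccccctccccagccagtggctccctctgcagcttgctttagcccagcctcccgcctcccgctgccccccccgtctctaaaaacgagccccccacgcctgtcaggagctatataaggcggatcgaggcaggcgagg
Prl2c3 (chr13:12800080-12800329, minus strand): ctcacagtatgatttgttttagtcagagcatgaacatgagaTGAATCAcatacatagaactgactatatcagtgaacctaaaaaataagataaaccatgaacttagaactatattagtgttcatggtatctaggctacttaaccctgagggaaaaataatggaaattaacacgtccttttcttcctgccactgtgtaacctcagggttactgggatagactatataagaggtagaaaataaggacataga
Cldn4 (chr5:134946935-134947184, minus strand): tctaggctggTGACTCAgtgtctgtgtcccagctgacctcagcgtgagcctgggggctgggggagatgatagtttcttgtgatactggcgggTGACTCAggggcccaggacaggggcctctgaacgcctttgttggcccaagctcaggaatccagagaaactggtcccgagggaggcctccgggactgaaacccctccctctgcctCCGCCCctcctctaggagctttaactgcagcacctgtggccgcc
Cited1 (chrX:102252182-102252431, minus strand): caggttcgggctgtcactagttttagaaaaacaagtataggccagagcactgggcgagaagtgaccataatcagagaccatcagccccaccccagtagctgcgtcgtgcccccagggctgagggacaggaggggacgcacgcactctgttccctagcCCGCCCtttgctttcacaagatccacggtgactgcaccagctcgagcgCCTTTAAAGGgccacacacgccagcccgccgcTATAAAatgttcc
A530046M15Rik (chr13:15806993-15807242, plus strand): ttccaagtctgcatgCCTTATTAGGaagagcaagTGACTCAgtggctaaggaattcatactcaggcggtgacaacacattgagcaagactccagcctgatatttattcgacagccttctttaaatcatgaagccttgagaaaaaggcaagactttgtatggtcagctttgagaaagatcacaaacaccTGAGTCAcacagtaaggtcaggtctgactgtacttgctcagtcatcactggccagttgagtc
Counted from the start, TGANTCA began at −240 and −158 in *Cldn4*, at −209 in *Prl2c3* and at −216 and −62 in *A530046M15Rik*. The CArG box began at −45 in *Cited1*, where TATAAA followed at −13, and at −235 in *A530046M15Rik*. *Npas4*, the gene of the highest ratio among those with a D5 count, held a GC box at −203 and none of the other capitalised motifs. The *Cited1* window is 1 of 3 for that gene. The windows of the set had a median GC content of 51.2% and all windows 52.7%, so their base composition was close.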

How the data were processed

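RNA-seq libraries of 3 cultures at D0 and 3 at D5 were analysed. The authors aligned the reads to GRCm38 and counted them on genes with featureCounts, and these raw counts were deposited without normalization. The labels' processing notes also name DESeq2 1.6.3. The paper and the labels name different aligners, and the annotation release, strand setting, read length and handling of reads with several matches are not given in the sources used here, so near-identical and overlapping genes may share reads. Each deposited table also held 92 ERCC spike-in entries and an unnamed entry that equalled the total of its column, neither of which entered a library size or a test. Unused value columns numbered 0.

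From the counts, edgeR 4.0.16 (R 4.3.3, filterByExpr) gave TMM factors, CPM, log2 fold changes and quasi-likelihood p-values with Benjamini-Hochberg adjustment across 16290 genes, and TPM used the exonic length of GENCODE M21, which 99.9% of genes matched. An exact permutation test of 3 against 3 libraries cannot go below 0.1, so it was not used. Replicates differed by more than sampling noise (chi-square per degree of freedom 2.16 to 3.45), and each counted as 1 sample. Depth scaling, counting intervals (95%, exact conditional binomial), 50-base words and motifs were computed with Python 3.11.15, numpy 2.4.6, scipy 1.17.1 and pandas 2.3.3. On simulated counts the test was checked only for recovering planted changes, not for its rate of false calls or for genes of very low count.

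The 58 genes and the 17 gene lists were chosen with earlier results of these data known. Counts in every library are given for the 20 genes of highest TPM, the 10 coding genes of highest CPM and those in a list, and some others to account for the set. Relatives (symbol stems of at least 3 letters with at most 40 genes) and neighbours (within 50 kb) are named among the 10 most changed, or, for list genes, where called, and the others, among them *Socs2*, *Pdgfc*, *Gas1*, *Sema4d*, *Umad1*, *Pla1a*, *Tas1r3* and *Cd14*, were chosen after their values were seen. The alternatives were DESeq2 1.42.0, total counts, ERCC totals, no filter, a minimum of 10 counts throughout, leaving out single libraries, a replicate block, and other count limits.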

Additional observations from a re-analysis of the deposited data

How the results depend on the processing

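The number of genes in the set follows its limits: at most 1 count at D5 left 20 genes, 0 counts left 6, at least 100 counts at D0 left 8, and scaling D0 to the D5 depth left 33, whereas at most 5 counts at D5 gave 85. With each library left out it ranged from 58 to 73. The median multiple of the 3-count limit was 12.7 with total counts and 17.6 with the ERCC totals, and 11.9 to 12.2 without 1 library. Further choices were added after the data were seen: without the genes of shared sequence 47 remained, and the neighbours without overlapping and histone genes are given above. Scaling to the ERCC totals gave 3747 lower and 1813 higher genes, 4 higher neighbours, 10 higher relatives and 56 higher listed genes. With at least 10 counts in every library, 6 relatives were lower and 8 higher, since fewer genes were tested. Leaving out 1 library gave 6513 to 6663 lower and 6723 to 6936 higher genes, 68 to 73 and 17 to 20 neighbours, 9 to 10 and 16 to 18 relatives, and 89 to 92 and 89 to 92 listed genes. The sign of *Umad1* turned with total counts (−0.045), the ERCC totals (−0.53) and no filter (−0.013), and that of *Cd14* (−0.017) without D5 replicate 1 (0.074), and the cause was not tested. Without other single libraries *Cd14* lay at −0.10 or above. *Npas3* (log2 fold change −0.91) lost its call with DESeq2 (−0.92) and without D5 replicate 1 (−0.41), and *Cldn12*, *Pla2g4a*, *Fos*, *Egr1*, *Krt19* and *Cd68* lost theirs with the ERCC totals. Another 696 values of single genes kept their direction and their side of the threshold.

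The replicate numbers do not pair the samples by label. Deviations of same-numbered samples from their group means correlated at 0.033, 0.064 and 0.028, each the highest for its number. The replicate block gave 6664 lower and 6894 higher genes. Depth limits what can be said of D5: a count of 0 in a library still allows a level of up to 3 counts, so these genes are not shown to be off.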
